A study of Mus musculus with 4 samples.

Results

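Hepatocytes take up amino acids from portal and arterial blood, use their carbon for glucose and their nitrogen for urea, and release others to the circulation, and each class of amino acid crosses the plasma membrane through its own carriers. The genes described here are 5 such carriers of the SLC families, taken as a named list by a rule that used no measured value, out of 32287 features in the count tables. Slc38a4 encodes SNAT4, a sodium-coupled carrier of small neutral amino acids such as alanine. Slc7a2 encodes CAT2, which carries arginine, lysine and ornithine, and Slc43a1 and Slc43a2 encode LAT3 and LAT4, facilitators of branched-chain and other large neutral amino acids. Slc16a10 encodes TAT1, a facilitator of the aromatic amino acids that also moves thyroid hormones. The periportal hepatocytes that blood reaches first hold most of the urea cycle, and the pericentral ones around the hepatic vein hold glutamine synthetase, so that amino acid handling differs along the lobule.

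The data are UMI counts (unique molecular identifiers, which count captured RNA molecules) of single liver nuclei from Bl/6 mice, with 1 library for each of 4 groups. Mice were fed a chow diet (CD) or a low-protein diet (LPD) for 1 week, were injected through the tail vein with Sleeping Beauty plasmids (SB-HTVI), and were kept on the diet for 2 more weeks. The study's general methods give male mice of 6 to 8 weeks. The oncogene groups received human c-MET and ΔN90-β-catenin, both driven by an EF1α promoter and taken up by a minority of hepatocytes, and the control groups, which had the same diets and injection, received a vector. The number of animals behind a library is not given in the sources used here. With a single library per group nothing can be checked against replicates, and the 95% intervals given beside values reflect counting error alone.

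After filtering, 42877 of 44010 barcodes were kept, with medians of 1762 to 3807 UMIs per nucleus, the 2 LPD libraries being the shallower. Mitochondrial genes took a median of 2.42% and 0.983% of UMIs under the labels CD control and CD oncogene and 0.09997% and 0.127% under LPD control and LPD oncogene, so depth and mitochondrial share cannot be told apart from diet. Pairs of libraries shared 16 to 35 barcodes. Hepatocyte clusters held 32224 nuclei, with 7966 under the label CD control, 9646 under CD oncogene, 7758 under LPD control and 6854 under LPD oncogene, and sets of 4 values follow this order throughout. One of these 5 clusters, with 4206 nuclei, was led by haemoglobin genes and had a low depth, and results without it are given in the closing section. The transgenes went against the CD labels: human MET and CTNNB1 UMIs numbered 100, 0, 0 and 6. Nuclei kept under CD oncogene (12552) also outnumbered those under CD control (10397). The study gives more nuclei for its CD vector group than for its CD oncogene group. Groups are therefore named as labelled, and if the 2 CD labels were exchanged every difference between the CD libraries would change sign.

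The members are protein-coding genes, given here with their mm10 (GRCm38) positions in GENCODE vM21. Slc38a4 (ENSMUSG00000022464) lies on the minus strand of chromosome 15 from 96994820 to 97055956, and Slc16a10 (ENSMUSG00000019838) on the minus strand of chromosome 10 from 40033532 to 40142258. Slc7a2 (ENSMUSG00000031596), whose isoforms the gene counts do not separate, lies on the plus strand of chromosome 8 from 40862396 to 40922308. Slc43a1 (ENSMUSG00000027075) is on the plus strand of chromosome 2 from 84838850 to 84863594, and Slc43a2 (ENSMUSG00000038178) on the plus strand of chromosome 11 from 75531694 to 75577575. Exons cover 6.97% of the span of Slc38a4 and 6.77% of that of Slc16a10. The sources used here do not say whether intronic reads were counted, so levels are compared only for the same gene between sets of nuclei.

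In hepatocytes Slc7a2, Slc38a4 and Slc16a10 were plainly detected, and Slc43a1 and Slc43a2 were hardly detected. Levels are sums over a library's hepatocyte nuclei in CPM (counts per 1000000 mouse-gene UMIs). Slc7a2 was at 1109, 2990.5, 3559 and 2383 CPM, from 44828 to 163348 UMIs. It was lowest under the label CD control and highest under LPD control, and the counting intervals of all 4 libraries were apart. Slc38a4 was at 456, 808, 1137 and 476 CPM, high under CD oncogene and LPD control and low under the other labels. Slc16a10 was at 333, 503, 497 and 325 CPM, with the same high and low libraries as Slc38a4. For Slc16a10 the members of each of these pairs did not differ beyond counting error: the log2 ratio of LPD control over CD oncogene was -0.02 (-0.05 to 0.01) and that of LPD oncogene over CD control was -0.04 (-0.08 to 0.005).

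**Figure D1:**
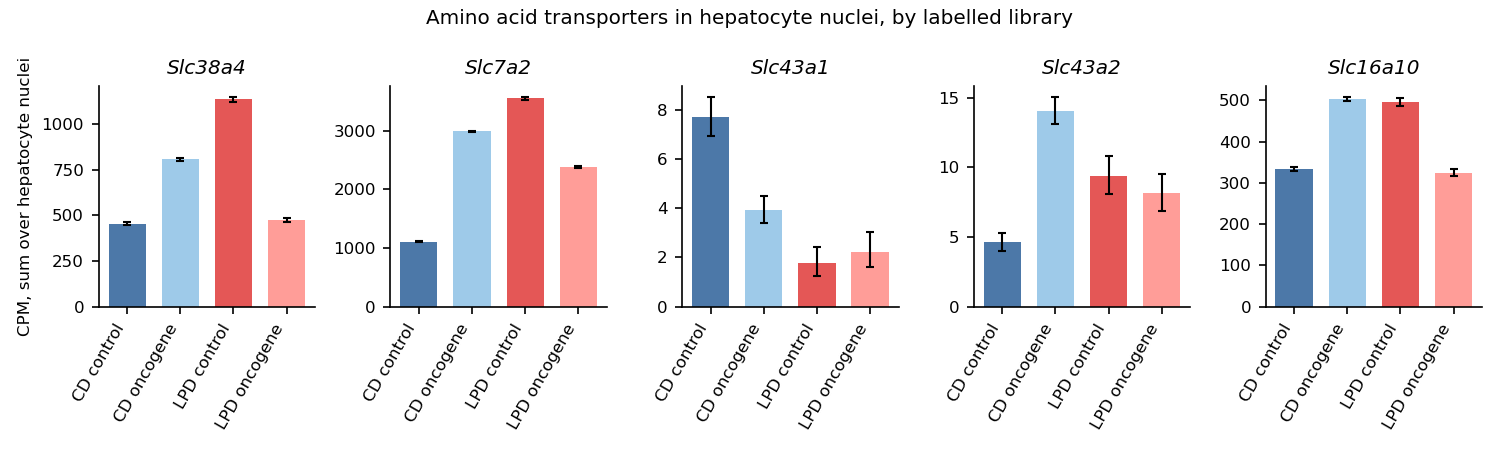
Level of each transporter in hepatocyte nuclei, in CPM on axes that start at 0, with 1 bar for each labelled library and exact Poisson 95% intervals. Slc7a2, Slc38a4 and Slc16a10 are at 325 CPM or more in every library, whereas Slc43a1 and Slc43a2 stay between 1.76 and 14.04 CPM.

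Slc43a2 was at 4.61, 14.04, 9.39 and 8.13 CPM in hepatocytes, from 153 to 767 UMIs. Slc43a1 was at 7.70, 3.92, 1.76 and 2.23 CPM, from 36 to 359 UMIs, so that it was under 10 CPM in all 4 libraries. Both genes were thus at the edge of what these libraries can follow in hepatocytes, and the word hepatocyte in a name for the whole list is not borne out for Slc43a2, as the cell classes below show.

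The share of hepatocyte nuclei with at least 1 UMI followed depth as well as level. For Slc7a2 it was 84.6%, 96.1%, 95.7% and 91.3%, at median depths of 4786, 4049.5, 2241.5 and 2275 UMIs. After each nucleus was thinned to 1000 UMIs, which left out 459 to 598 shallower nuclei per library, these shares became 57.4%, 86.8%, 91.8% and 81.8%, in the order of the CPM. Thinned Slc38a4 shares were 34.8%, 52.1%, 58.3% and 33.8% (unthinned 74.2%, 85.2%, 77.9% and 57.4%). For Slc16a10 the thinned shares were 24.4%, 30.8%, 28.9% and 20.4% (unthinned 58.3%, 64.7%, 47.3% and 36.4%). T or NK nuclei, used here to gauge background, gave thinned shares of 26.3%, 54.8% and 39.8% for Slc7a2 and 18.4%, 31.8% and 10.6% for Slc38a4 under CD control, CD oncogene and LPD oncogene, from median depths of 845 to 1209.5 UMIs, and too few LPD control nuclei were deep enough to thin. A UMI in a nucleus is therefore not read as expression by itself. Thinned shares for Slc43a2 were 0.529%, 1.67%, 0.899% and 0.9695%, and for Slc43a1 0.638%, 0.405%, 0.221% and 0.266%.

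Whether these carriers differed with dietary protein was examined by setting each LPD library against each CD library, which gives 4 pairs, a gene being counted as different when it was past 2-fold in the same direction in all 4. Of the 5 members 4 had enough counts (at least 10 CPM in 1 set and 100 UMIs over the sets), and 0 were past 2-fold in all pairs in either direction, where 3.95% of 9213 genes were higher and 2.37% lower. The median log2 ratio of all genes was 0.14 to 0.29 in the 4 pairs. Slc38a4 gave log2 ratios of 1.32 (1.29 to 1.35) and 0.49 (0.47 to 0.52) for LPD control over CD control and CD oncogene. For LPD oncogene over the same libraries it gave 0.06 (0.03 to 0.10) and -0.76 (-0.80 to -0.73), so that both signs occurred. Slc7a2 gave 1.68, 0.25, 1.10 and -0.33 in the same order of pairs, Slc43a2 gave 1.03, -0.58, 0.82 and -0.79, and Slc16a10 gave 0.58, -0.02, -0.04 and -0.63. The spread among the pairs of each of these genes was wider than any difference common to the diets. Slc43a1 alone had 1 sign in all pairs, from -2.13 (-2.67 to -1.63) to -0.81 (-1.32 to -0.33), but it was under the CPM limit and was not counted.

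Between injection labels the ratios of Slc38a4, Slc7a2 and Slc16a10 had opposite signs in the 2 diets, although none was past 2-fold in both. In CD, where 4 members had enough counts, Slc7a2 was higher under the oncogene than under the control label by 1.43 on the log2 scale (1.42 to 1.45). Slc43a2, which passed the CPM limit through the CD oncogene library alone, was higher by 1.61 (1.39 to 1.83). These 2 were past 2-fold, as were 2.68% of 8521 genes, and 0 members were lower, where 3.61% of genes were. Slc38a4 at 0.83 (0.80 to 0.85) and Slc16a10 at 0.60 (0.57 to 0.62) stayed inside 2-fold. In LPD, where 3 members had enough counts, Slc38a4 was lower under the oncogene label by a log2 ratio of -1.26 (-1.29 to -1.22), and it was the 1 member past 2-fold, with 1.29% of 8762 genes lower by as much. No member was higher, against 1.97% of genes. Slc7a2 at -0.58 (-0.60 to -0.56) and Slc16a10 at -0.61 (-0.66 to -0.57) lay inside 2-fold. The library labelled CD control, which held most transgene UMIs, and the one labelled LPD oncogene had the lower levels of Slc38a4, Slc7a2 and Slc16a10 within their diets.

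The signs of Slc38a4, Slc7a2 and Slc16a10 were the same in every zone of the lobule. Hepatocyte nuclei were ranked in each library by a zonation index, the mean scaled level of 13 pericentral genes minus that of 12 periportal genes, none of them a member, and were divided into 3 zones of equal size (periportal, middle and pericentral). In CD the log2 ratio of Slc7a2 between the labels was 1.08 in the periportal zone, 1.57 in the middle and 2.03 in the pericentral zone, and that of Slc38a4 was 0.66, 0.80 and 1.14. In LPD the ratios of Slc38a4 were -1.48, -1.25 and -1.07 from the periportal to the pericentral zone. Slc16a10 gave 0.87, 0.40 and 0.47 in CD and -0.87, -0.75 and -0.57 in LPD. Zones of different libraries are not the same range of the index, because with cuts at fixed index values 52.8%, 22.5%, 26.5% and 31.6% of nuclei were pericentral.

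Zones of the same library share diet, label and preparation, and between them Slc16a10 had the widest difference of the members with enough counts. Its CPM rose from 145 in the periportal to 616 in the pericentral zone under CD control, from 265 to 852 under CD oncogene, from 217 to 931 under LPD control and from 118 to 628 under LPD oncogene. The log2 ratios were 2.08 (2.02 to 2.15), 1.69 (1.64 to 1.73), 2.10 (2.02 to 2.19) and 2.41 (2.29 to 2.52). It was the 1 of 4 members with enough counts that was past 1.5-fold in all 4 libraries, where 2.71% of 9530 genes were higher and 2.34% lower, and the median of all genes lay between -0.01 and 0.10. Glul, the glutamine synthetase gene, which was left out of the index, rose from 19.9 to 980.4 CPM between the same zones under CD control and rose in the other libraries as well, to 163, 342 and 499 CPM.

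The increase of Slc16a10 was not even along the index. With the nuclei divided into 5 equal parts, its level under CD control was 150, 146, 221, 359.5 and 752 CPM from the periportal to the pericentral end. The last part held 49.1%, 52.9%, 50.2% and 55.5% of its hepatocyte UMIs in the 4 libraries, against 21.8% to 26.3% of all UMIs. Between 3.81-fold and 6.64-fold separated its highest from its lowest part, and the highest was the last in every library.

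**Figure D2:**
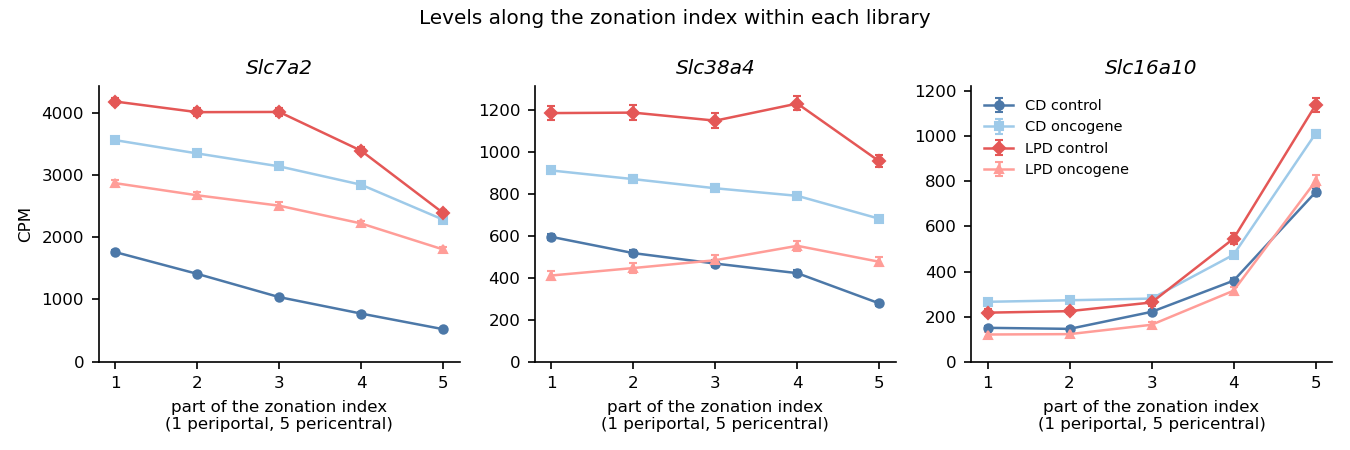
Level in CPM of Slc7a2, Slc38a4 and Slc16a10 in 5 equal parts of the hepatocyte nuclei of each library, ordered from periportal to pericentral by the zonation index, with exact Poisson 95% intervals and 1 line per labelled library. Slc16a10 climbs in the last 2 parts of all 4 libraries, Slc7a2 declines towards part 5 in all 4, and the Slc38a4 lines differ in slope.

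Slc7a2 had the opposite slope. It fell from 1658 to 600.0 CPM between the periportal and the pericentral zone under CD control, from 3503 to 2458 under CD oncogene, from 4128 to 2748 under LPD control and from 2802 to 1958 under LPD oncogene. The log2 ratios were -1.47 (-1.50 to -1.43), -0.51 (-0.53 to -0.49), -0.59 (-0.61 to -0.56) and -0.52 (-0.55 to -0.48), lower in 4 of 4 libraries but inside 1.5-fold in 2 of them. Comparing the outermost of the 5 parts in place of the outer zones brought it past 1.5-fold in all 4. Ass1, the argininosuccinate synthase gene of the urea cycle, which was not in the index, had the same direction in all 4 libraries: it went from 574 to 132 CPM under CD control, from 1055 to 716 under CD oncogene, from 773 to 558 under LPD control and from 524 to 429.9 under LPD oncogene.

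Slc38a4 had no slope common to the libraries. Its log2 ratios were -0.80 (-0.85 to -0.75), -0.32 (-0.35 to -0.29), -0.16 (-0.21 to -0.12) and 0.25 (0.17 to 0.32), the last of the opposite sign. Over the 5 parts it was lowest at the pericentral end under CD control, CD oncogene and LPD control, and lowest at the periportal end under LPD oncogene. Slc43a2 gave ratios of -0.56, -0.94, -0.12 and -0.24 from 47 to 346 UMIs per zone, with intervals that included 0 in both LPD libraries. For Slc43a1, with 13 to 140 UMIs per outer zone, all 4 intervals included 0.

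Hepatocyte nuclei with a transgene UMI (positive) were compared with those without one (negative) inside the library labelled CD control, the only one with enough positive nuclei. There 85 of 7966 hepatocyte nuclei (1.07%) had a transgene UMI, and 80 of the 85 were in the pericentral zone. The index that sets this zone includes Axin2, which the study names as a β-catenin target. It also includes Cyp2e1, Cyp1a2 and Lgr5, which the study reports high in oncogene-expressing hepatocytes. The study places most of these cells in the periportal and midzonal areas, with expression like that of pericentral cells. The zone of the positive nuclei is thus one of expression and need not be their place in the lobule. Their median depth was 7307 UMIs against 4759 in negative nuclei. Slc16a10 was at 828 CPM in positive nuclei and at 325 in the others, or 1.35 (1.24 to 1.46) on the log2 scale. Slc38a4 was at 231 and 459 CPM (-0.99, -1.21 to -0.78) and Slc7a2 at 571 and 1119 CPM (-0.97, -1.11 to -0.84). With 3 members having enough counts, 1 was higher and 2 lower by more than 1.5-fold, where 9.43% of 8702 genes were higher and 10.7% lower. For Slc43a1 the positive nuclei held 6 UMIs, and for Slc43a2 they held 0.

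When positive nuclei were compared with negative ones of the same zone, the differences were smaller and 0 members were past 1.5-fold, where 4.7% of genes were higher and 7.93% lower. Slc16a10 was at 854 and 604 CPM (0.50, 0.38 to 0.61), Slc38a4 at 226 and 331 CPM (-0.55, -0.77 to -0.33) and Slc7a2 at 536 and 603 CPM (-0.17, -0.32 to -0.03). All 3 kept their sign, and their intervals, which reflect counting error alone and not the spread between nuclei, did not reach 0. The index values of the positive nuclei within this zone were not matched further. Because the index holds genes that the study reports high in oncogene-expressing hepatocytes, matching by zone can itself make differences smaller. Negative nuclei may also include carriers whose transgene RNA was not counted, as the study detected these transcripts in few cells. The comparison cannot tell zone and transgene apart.

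**Figure D3:**
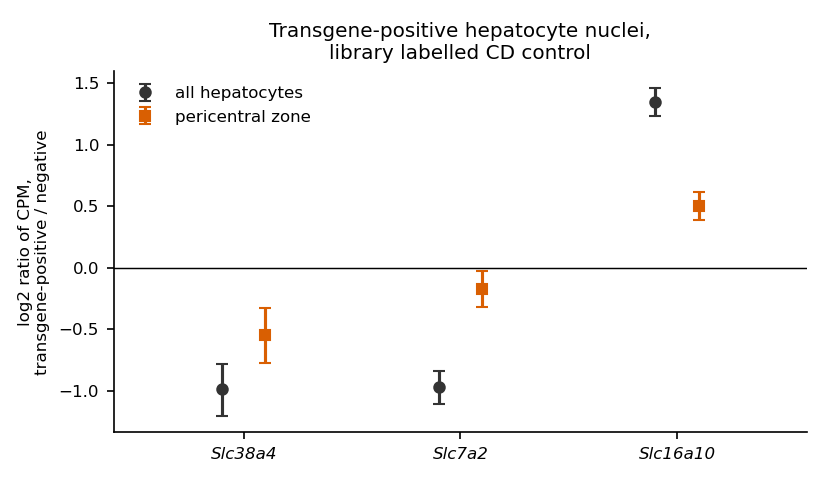
Log2 ratio of CPM between transgene-positive and transgene-negative hepatocytes in the library labelled CD control, over all hepatocytes (circles) and within the pericentral zone (squares), with exact conditional 95% intervals. Restricting the comparison to the pericentral zone brings Slc16a10 from 1.35 to 0.50 and Slc7a2 from -0.97 to -0.17.

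Cell classes were compared to see which nuclei hold each carrier. Because free hepatocyte RNA reaches all nuclei, the ratio of a gene's CPM in a class to that in hepatocytes was set against the same ratio of 12 genes made by hepatocytes, such as Alb and Apoa2. Slc43a2 stood above all 12 in every library in 8 of 9 classes, by the ratio itself and without regard to its interval. In Kupffer nuclei, the resident macrophages, it was at 321, 401, 634 and 812 CPM, which was 69.5, 28.5, 67.5 and 99.8 times its level in hepatocytes, where the highest of the 12 genes reached 0.802 to 1.40 times. Of all genes with enough counts 23% stood above the 12 in Kupffer nuclei. In sinusoidal endothelial nuclei (15.5% of genes) Slc43a2 was at 228, 326, 476 and 360.4 CPM, 23.2 to 50.6 times its hepatocyte level.

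Elsewhere Slc43a2 was lower but in most classes still above hepatocytes. It reached 114 to 183 CPM in B nuclei (11.6% of genes above the 12), 62.4 to 95.6 in T or NK nuclei (19.3%), 84.95 to 318 in monocyte or dendritic nuclei (14.5%), 97.6 to 140 in vascular endothelial nuclei (11.4%) and 62.1 to 127 in cholangiocyte nuclei (9.68%). The last 2 classes had at least 50 nuclei in only 3 libraries. Stellate nuclei held 17.0 to 41.6 CPM (25.2%), from only 9 UMIs under LPD control and 6 under LPD oncogene. Under LPD control the stellate ratio to hepatocytes was 1.81 (0.813 to 3.50), an interval that spans both 1 and the highest reference ratio of 0.863. Mesothelial nuclei were the exception (10.9%), with 0 to 7 UMIs. Hepatocytes held 27.7%, 50.6%, 25.4% and 10.6% of the Slc43a2 UMIs of the libraries although they made up most nuclei, whereas for Slc38a4, Slc7a2 and Slc16a10 the share was 83.6% to 94.7%. Of the mouse-gene UMIs of all barcodes (56513958, 62869348, 23260800 and 23172457) hepatocyte nuclei held 4.66e+07, 5.46e+07, 2.04e+07 and 1.88e+07, so a high share is not particular to these genes. These totals include barcodes that the filter removed, whereas the shares of single genes are over the nuclei kept, so the bases are not the same.

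The nuclei with a UMI showed the same order. Slc43a2 was detected in 32.1%, 33.9%, 42.6% and 48.9% of Kupffer nuclei, at median depths of 841.5 to 1369 UMIs, against 2.46%, 6.76%, 2.26% and 2.12% of the deeper hepatocyte nuclei. The level left in hepatocytes was 1.44%, 3.50%, 1.48% and 1.00% of that in Kupffer nuclei. The 8 Kupffer markers were in hepatocytes at 0.0805% to 0.786%, 0.207% to 1.02%, 0.122% to 0.873% and 0.299% to 1.79% of their Kupffer levels, so that Slc43a2 lay above all 8 in 3 libraries and among them under LPD oncogene. Their summed level in hepatocytes was 8.28, 11.1, 18.3 and 37.6 CPM, an order that Slc43a2 did not follow. Kupffer nuclei made up 1.56%, 2.18%, 3.42% and 8.16% of nuclei. Relative to sinusoidal endothelial nuclei, the Slc43a2 level in hepatocytes was 2.02%, 4.31%, 1.97% and 2.26%. The highest of the 8 sinusoidal endothelial markers was at 1.90%, 1.64%, 1.04% and 2.18%, below Slc43a2 in every library. How much of the Slc43a2 counted in hepatocytes was free RNA of other cells was not tested.

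**Figure D4:**
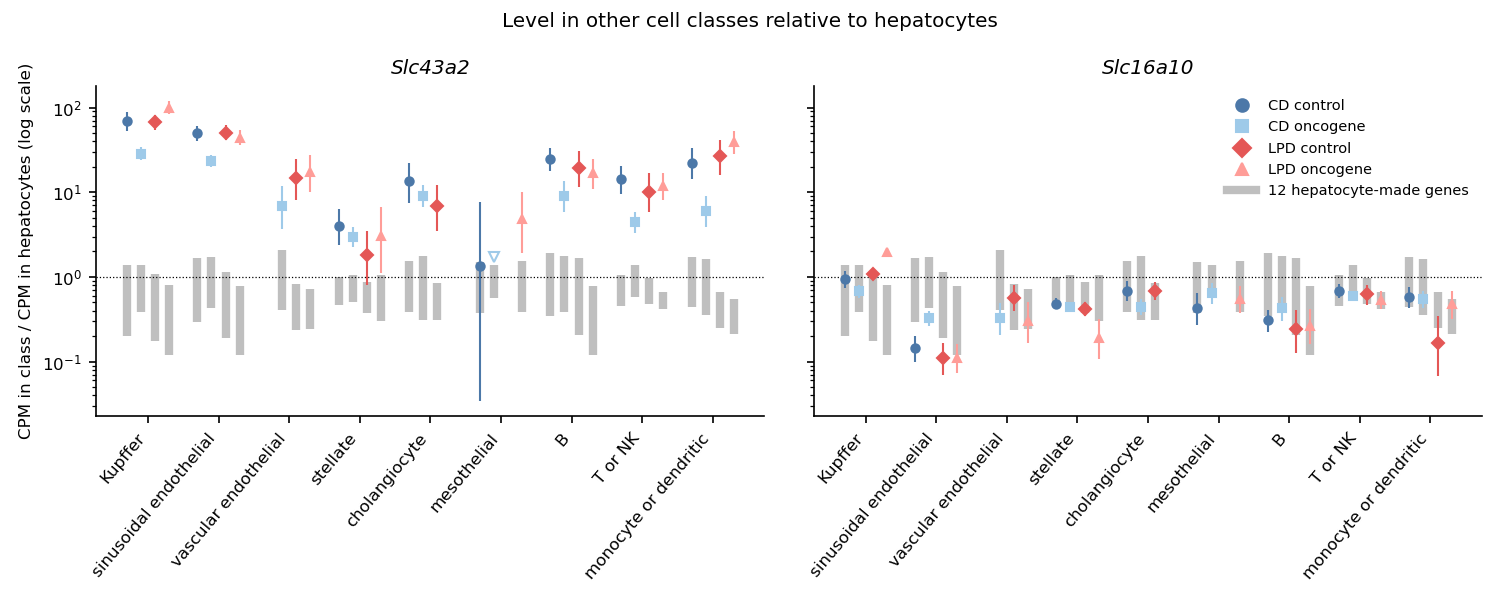
Ratio of the CPM in each cell class to the CPM in hepatocytes of the same library, on a log scale, for Slc43a2 and Slc16a10, with exact conditional 95% intervals. Grey bars span the 12 hepatocyte-made genes, the open triangle is the upper bound of a class with 0 UMIs, and classes with under 50 nuclei are not drawn. Slc43a2 lies 23.2 to 99.8 times above hepatocytes in Kupffer and sinusoidal endothelial nuclei, and Slc16a10 rises above the grey bars only in the Kupffer nuclei of the LPD libraries, under LPD control by less than its interval.

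Slc38a4 and Slc7a2 did not rise above the hepatocyte-made reference genes in any class outside hepatocytes. Over 33 sets of a class and a library their ratios to hepatocytes were at most 0.887 and 0.875, above the 12 hepatocyte-made genes in 0 sets for both and below all of them in 13 and 24 sets. In Kupffer nuclei Slc7a2 was at 166, 819, 471 and 276 CPM and Slc38a4 at 128, 337, 157 and 65.0 CPM, values that are read as background.

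Slc16a10 stood above the 12 reference genes beyond counting error only in the Kupffer nuclei under LPD oncogene. In Kupffer nuclei it was at 313, 342, 543 and 642 CPM, 0.940, 0.680, 1.09 and 1.98 times the hepatocyte level, against a highest reference ratio of 1.40, 1.37, 1.08 and 0.802. The counting interval of the ratio was 0.934 to 1.27 under LPD control, which spans the reference, and 1.81 to 2.16 under LPD oncogene, which does not. In sinusoidal endothelial nuclei the ratios were only 0.144, 0.325, 0.111 and 0.110. The UMIs of Slc16a10 were also taken per UMI of Slc7a2, a measure chosen after the values were seen, with a denominator that lay below all 12 reference genes in the Kupffer nuclei of all 4 libraries. Hepatocytes held 0.3004, 0.168, 0.140 and 0.136 Slc16a10 UMIs per Slc7a2 UMI, and sinusoidal endothelial nuclei 0.266, 0.215, 0.110 and 0.156. Kupffer nuclei held 1.89 (1.29 to 2.78), 0.418 (0.339 to 0.512), 1.15 (0.921 to 1.44) and 2.33 (2.003 to 2.72), above both in all 4 libraries. Other classes were above hepatocytes as well, with 1.26, 0.3801, 0.189 and 0.418 in monocyte or dendritic nuclei and 0.4, 0.235, 0.241 and 0.404 in B nuclei, so that the measure is given as a description. Kupffer nuclei with a Slc16a10 UMI made up 27.8%, 34.3%, 33.0% and 40.0% of their class, against 5.97%, 17.4%, 4.47% and 2.999% of sinusoidal endothelial nuclei at similar depths.

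For Slc43a1 no class gave enough UMIs to place it, with ratios above the 12 genes in 7 of 33 sets and below them in 18. Mesothelial nuclei held 9 UMIs under LPD oncogene (50.1 CPM, 22.9 to 95.1), 3 under CD control and 0 in 92 nuclei under CD oncogene, which allows up to 3.26% of nuclei with a UMI at that depth (3 counts of the total) and does not limit the share that express the gene. Hepatocytes held 89.8%, 89.5%, 87.8% and 71.2% of its UMIs, a share to be read beside their UMIs among those of all barcodes given above, with the unlike bases stated there.

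Genes with patterns most like those of the members were listed as a description, by Pearson's r of log2(CPM + 1) over 37 sums of a class and a library, which share libraries and free RNA. Hgd (r = 0.97) and Uox (0.94) were among the 3 nearest to Slc38a4, and Fbp1 and Arg1 (both 0.94) among the 3 nearest to Slc7a2. Thrb, the thyroid hormone receptor beta gene (0.85), Rbm47 (0.80) and Cd302 (0.76) were nearest to Slc16a10, and Abcc4 (0.91), Rnf157 (0.90) and Abi3 (0.89) to Slc43a2. The values for Slc43a1 were lower, with Mirg at 0.62, Crym at 0.59 and C4b at 0.55. Slc38a4 and Slc7a2 had an r of 0.84 with each other, and Slc43a2 had negative values with both, of -0.52 and -0.51. Over the 20 sums of 1 of the 5 parts and a library, Pck1 (0.97) was among the 3 nearest to Slc7a2, after Slc8b1 (0.97) and before Elovl2 (0.97). Pck1 is a periportal gene of the zonation index that set the 5 parts, so its course along them was fixed in part by the index. Along the same sums Mcc (0.94), Ttc39b and Gm13775 (both 0.92) were nearest to Slc16a10, and Oaf and Baat (both 0.96) and Ptprf (0.96) to Slc38a4.

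Several other amino acid carriers were past 2-fold between the diets in all pairs. Of 14 further genes of the cationic and heteromeric families (SLC7 and SLC3), 4 had enough counts and 3 were past 2-fold higher in all 4 pairs of libraries. These 3 reached the 10 CPM limit only through LPD libraries, so their count is set in part by that limit. Slc7a7, the y+LAT1 light chain that exports cationic amino acids, was at 4.49, 6.00, 47.3 and 57.3 CPM in hepatocytes, and Slc7a1, the cationic carrier CAT1, at 0.687, 0.403, 7.24 and 22.9. Slc3a2, the heavy chain that y+LAT1 needs, was at 7.45, 7.54, 22.5 and 34.3 CPM. Among 15 sodium-coupled neutral carriers, 2 of the 3 with enough counts were higher: Slc38a2, the SNAT2 gene of the same family as Slc38a4, was at 123, 210.2, 461 and 678 CPM, and Slc6a9, a glycine carrier, at 22.0, 9.87, 61.7 and 71.9. Slc6a13, a carrier of taurine and GABA, was at 107, 109, 370.5 and 308 CPM, and the lysosomal cystine exporter Ctns at 16.2, 16.5, 36.3 and 37.8. No listed carrier was past 2-fold lower. The lysosomal list had 1 of 7 genes past 2-fold and the mitochondrial list 0 of 9. On a list of 9 carriers known as targets of the amino acid stress factor ATF4, 4 had enough counts (Slc38a2, Slc3a2, Slc6a9 and Slc7a1) and these 4 were higher, where 3.95% of all genes were, but Slc3a2 and Slc7a1 entered only through their LPD levels.

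Slc7a7 is also a gene of Kupffer (260.5, 137, 260.3 and 359 CPM) and sinusoidal endothelial nuclei (115 to 271 CPM). The Kupffer markers counted in hepatocytes were higher in both LPD libraries, as given above, whereas the 8 sinusoidal endothelial markers summed to 40.7, 43.8, 30.04 and 41.2 CPM there. Without hepatocyte nuclei that held 2 or more UMIs of other classes' markers, Slc7a7 was at 6.31, 6.10, 48.6 and 52.9 CPM. Both LPD libraries stayed above both CD libraries, and the CD control value was higher than with those nuclei included.

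**Figure D5:**
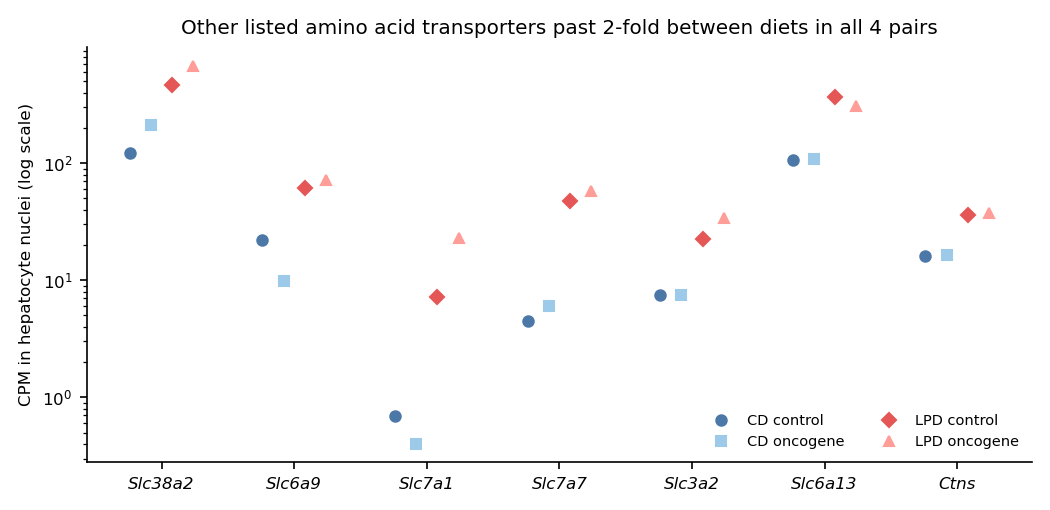
CPM in hepatocyte nuclei, on a log scale, of the 7 listed transporters outside the 5 members that were past 2-fold in the same direction in all 4 pairs of an LPD and a CD library, with 1 symbol per labelled library. Both LPD libraries lie above both CD libraries for each gene.

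Along the lobule the listed carriers fell on both sides. Slc1a2, the glutamate carrier GLT-1, was the most pericentral of them, with log2 ratios of 5.32 to 6.25 between the outer zones, and Slc1a5 was higher there too (1.99 to 3.54), although at 3.204 to 6.696 CPM over all hepatocytes it reached 10 CPM only through pericentral nuclei. Slc7a7 (-1.79 to -1.11), Slc7a1 (-2.29 to -0.65) and Slc3a1 (-2.002 to -1.52) were lower in the pericentral zone of all 4 libraries, on the side of Slc7a2. For Slc7a1 all hepatocytes held only 32 UMIs under CD control and 22 under CD oncogene, so its ratios in these libraries rest on few counts. In transgene-positive nuclei Slc1a2 was higher by 2.58 and Slc3a1 lower by a log2 ratio of -1.02, in the direction of their zone.

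The enzymes that use the carried amino acids were examined beside their carriers. For the aromatic amino acids of Slc16a10, 15 of 15 listed enzymes had enough counts. Of these 1 was past 1.5-fold higher in the pericentral zone of all libraries, where 2.71% of all genes were: Hpd, of tyrosine breakdown, with log2 ratios of 0.59 to 1.08. Between the LPD labels 4 of the 15, Acmsd (-1.16), Hgd (-1.19), Hpd (-1.07) and Tat (-1.83), were past 2-fold lower under LPD oncogene, as were 1.29% of all genes. Between the CD labels 2 of the 15, Acmsd (1.02) and Kynu (1.05), were past 2-fold higher under the oncogene label, where 2.68% of genes were. Ddc, which makes aromatic amines, was the 1 aromatic enzyme past 2-fold between diets, at 489, 563, 182 and 206 CPM, where 2.37% of all genes were lower. For the cationic amino acids of Slc7a2, Arg1, the arginase of the urea cycle, was lower in the pericentral zone (-1.78 to -0.60). Oat, of ornithine breakdown, was higher there (3.65 to 4.999), but it is a gene of the zonation index. For the same list 0 of 6 enzymes were past 2-fold between the diets in either direction, where 3.95% of all genes were higher and 2.37% lower. Otc (-1.40) was past 2-fold lower between the LPD labels, with the oncogene library below the control. Of the enzymes of alanine, serine and glycine, which Slc38a4 and Slc38a2 carry, 11 had enough counts. Of these 2, Gpt2 (140.5, 189, 449 and 474 CPM) and Shmt2 (38.0, 37.6, 103 and 79.9), were past 2-fold higher in LPD, and 1, Agxt (56.6, 138, 8.46 and 7.49), was lower, beside the same shares of all genes. The branched-chain enzymes, which share substrates with Slc43a1 and Slc43a2, had 0 of 15 past the fold between diets and 0 of 15 between zones. Among all genes 3.95% were higher and 2.37% lower between diets, and 2.71% higher and 2.34% lower between zones, so 0 of 15 does not set these enzymes apart.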

How the data were processed

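Mouse liver nuclei in 4 libraries, 1 per group as labelled, were profiled with the 10x 3' v3.1 chemistry. The authors deposited UMI counts per gene and barcode, not normalized, made with Cell Ranger 9.0.1 per the file headers on mm10 with human c-MET and CTNNB1 added; the submitters' processing notes also name Seurat 5. Here, nuclei with 200 to 7000 genes and at most 21% mitochondrial UMIs were kept. Louvain clustering (resolution 0.4, 23 components, 20 neighbours; numpy 2.4.6, scikit-learn 1.9.0, igraph 0.11.9) followed a Harmony correction written in numpy, with 123 genes left out, among them all listed transporters. Clusters were named when at least 3 markers and 50% of a class's list were raised 3-fold. Hepatocyte markers rarely passed that rule because free RNA was plentiful, so clusters with no other class raised and at least 50% of the median hepatocyte marker level were named hepatocyte, and 3 clusters (1163 nuclei) with markers of another class and a hepatocyte level of at least 75% were removed as doublets. Counts were summed per library and set of nuclei and given as CPM of mouse-gene UMIs, without a pseudocount. A gene was compared when it had at least 10 CPM in 1 set and 100 UMIs over the sets, and counted past 2-fold between libraries or 1.5-fold within them. No test was run, since each group is a single library. Intervals are exact Poisson, Clopper-Pearson or conditional 95% intervals. Named genes were the members, up to 4 genes per list past the fold of a contrast, and the 3 most similar genes per member, of which some are not reported here. Members, lists and contrasts were chosen with earlier results of these data known. Scripts were tested on simulated data.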

Additional observations from a re-analysis of the deposited data

Results flagged for a closer look

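For 3 of the members the difference between injection labels had opposite signs in the 2 diets. The log2 ratio of oncogene over control label was 0.83 in CD and -1.26 in LPD for Slc38a4, 1.43 and -0.58 for Slc7a2, and 0.60 and -0.61 for Slc16a10. With 1 library per group the difference between the diets was not tested. The sign of the CD values rests on the CD labels, which the transgene UMIs contradict.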

How the results depend on the processing

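No paired analysis was possible because each group has 1 library. Some counts of genes past a fold changed by more than 1.5 times. Thinning to 1000 UMIs left 1 member lower in transgene-positive nuclei in place of 2, and within the pericentral zone 0 were higher and 0 lower in place of 1 and 2. With the outermost of 5 parts in place of the outer zones 1 member was lower at the pericentral end, in place of 0. A limit of 1.5-fold between libraries gave 4 members higher between the CD labels in place of 2, and 2 lower between the LPD labels in place of 1. Requiring 20 CPM left 1 member, Slc7a2, higher between the CD labels in place of 2, and 3 entries of the other lists higher in the pericentral zone in place of 5, both lost entries being Slc1a5, which is on 2 lists. No ratio past its fold changed sign under any setting run. Leaving out nuclei with 2 or more UMIs of other classes' markers moved signs most, with 46 of 54 log2 ratios keeping theirs, and leaving out the haemoglobin-led cluster, a setting added after its leading genes were seen, kept 52 of 54. Many values moved by more than their narrow counting intervals, 43 of 88 on thinning, 41 of 93 with TMM factors and 7 of 89 with clusters not corrected for library. In hepatocytes Slc43a1 and Slc43a2 rest on 36 to 767 UMIs per library.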
